A study of Homo sapiens and Mus musculus with 9 samples.

Results

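Ribosome footprints and small RNA peaks were examined for the mRNAs of nuclear-encoded mitochondrial proteins in HEK293 cells, a human embryonic kidney line. The members were all gene names in the 4 lists of small RNA peaks that start with NDUF, SDH, UQCR, COX, ATP5, MRPL, MRPS, TIMM, TOMM or CHCHD, with pseudogenes left out. The rule gave 78 of the 5745 gene names: 40 of the oxidative chain (complexes I to IV, ATP synthase and their assembly factors), 27 of the mitochondrial ribosome, 7 of protein import and 4 CHCHD genes. TIMMDC1 is counted with import by its name, although its protein is known as an assembly factor of complex I. Each member was represented by 1 transcript. Because the names come from the peak lists, every member has a small RNA peak by construction, and mitochondrial genes without one are not covered.

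Mitochondria make ATP with a chain of membrane complexes that pass electrons to oxygen and with an ATP synthase driven by the resulting proton gradient. Most subunits of these complexes, and every protein of the mitochondrial ribosome that translates the remaining ones, are encoded in the nucleus, translated by cytosolic ribosomes and imported through the TOM and TIM complexes of the outer and inner membranes. Many of these proteins are small, and their mRNAs have short coding regions.

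Footprints came from wild-type HEK293 cells under 3 treatments in 4 libraries. Trans-RNA libraries 1 and 2 were both made from starved cells transfected with trans-RNA against the ATF4 mRNA and carry the same treatment label, but whether they received the same trans-RNA is not given. Another library came from starved cells and the last from control cells. Small RNA of HEK293 cells, labelled control in the titles of both libraries, was sequenced once after enrichment of capped molecules and once as total small RNA. The 2 trans-RNA libraries were therefore kept apart, each library stood for itself, no test between conditions was run, and intervals given here cover counting error only. No library of starved cells with a control RNA is among the samples used here, so the trans-RNA and the transfection itself cannot be told apart. The mRNA levels of these cells were not analysed here, so an amount of mRNA and its translation cannot be told apart either. The 3 mouse liver libraries of the series were not used.

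The deposited tables give footprint density around start and stop codons, scaled within each transcript, and from their step sizes the underlying whole reads were recovered for 10085 transcripts. These add up to 6050734 and 7401223 reads in trans-RNA libraries 1 and 2, 9247222 under starvation and 10513947 in control, and CPM below means reads of a transcript per 1000000 of these. Reads were recovered for 48 members: 25 of the oxidative chain, 15 of the mitoribosome, 6 of import and 2 CHCHD genes. The footprints of the other members were not analysed here. Coding positions are those of the coding region inside the windows around the start and stop codons. Ratios and values per kilobase on coding positions are scaled to the library's coding reads in the windows, not to all recovered reads. The middle of a long coding region is not seen, so a value on coding positions then covers its ends only. At coding positions, 87.1% and 88.1% of the members' reads in trans-RNA libraries 1 and 2, 89.9% under starvation and 88.6% in control lay in 1 reading frame. For all transcripts the share was 85.6% and 85.9% in trans-RNA libraries 1 and 2, 88.3% under starvation and 87.5% in control. The members with the lowest share in control were COX11 at 54.6%, MRPL18 at 60.3% and NDUFAF8 at 62.6%, so their values are less clearly footprints of that frame. NEFL, a neurofilament gene expressed in this line, was the only 1 of 9 HEK293 markers with a name and recovered reads, at 76.4 and 70.3 CPM in trans-RNA libraries 1 and 2, 76.8 CPM under starvation and 92.1 CPM in control, so the cell identity was checked on that gene alone.

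The promoters of these genes are known to share binding sites for NRF1 and for ETS factors such as GABP, which drive nuclear genes for respiration. The 250 bases before the gene start were searched on both strands for the NRF1 motif (GCGCA, any base, then GCGC) and the ETS motif (CCGGAAGT) in RefSeq promoters of build GRCh38.p14. The NRF1 letters stood in 8 of 32 oxidative chain promoters (25.0%) and 2 of 24 mitoribosome promoters (8.33%), beside 5.53% of 27305 promoters of all genes. The ETS letters stood in 9 of 32 oxidative chain promoters (28.1%) and 3 of 24 mitoribosome promoters (12.5%), beside 3.64% of all. A longer string for YY1 was in 0 of the 32 and 0 of the 24 promoters and in 0.256% of all promoters. Stretches around the sites of some members described below are shown with the matching letters in capitals, each written along the strand of its gene.
SDHD NRF1 (chr11:112086755-112086780, plus strand): ctgtgtttGCGCATGCGCgacgggtg
SDHD ETS (chr11:112086787-112086810, plus strand): gcctctcgACTTCCGGttcaccca
UQCRC1 NRF1 (chr3:48609676-48609701, minus strand): acggtactGCGCCTGCGCcgcgaccg
UQCRFS1 NRF1 (chr19:29213165-29213190, minus strand): gcctcctcGCGCCTGCGCcgtggttg
UQCRQ ETS (chr5:132866580-132866603, plus strand): ggtatctcCCGGAAGTtacctcac
COX8A ETS (chr11:63974593-63974616, plus strand): gctccagaACTTCCGGccagcgca
ATP5MK ETS (chr10:103396620-103396643, minus strand): caattcttCCGGAAGTgtgggcgg
MRPL17 NRF1 (chr11:6683404-6683429, minus strand): gctctgatGCGCATGCGCaaacacgt
MRPL38 ETS (chr17:75905078-75905101, minus strand): caacgggcACTTCCGGagccgggc
CHCHD2 ETS (chr7:56106651-56106674, minus strand): ccacaggaACTTCCGGgttttaaa
SDHD held both strings within its promoter, with the ETS letters nearer to the gene start. A match is a description of letters and no evidence of binding in these cells.

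Under starvation the oxidative chain mRNAs held a smaller share of footprints than in control. Their summed reads were 0.649% of the starvation library and 0.825% of the control library, and 19 of 25 members had a log2 ratio below 0, beside 50.2% of all 10030 transcripts compared. The median log2 ratio of starvation over control was -0.30 for the 25 members and -0.00 for all transcripts. For the mitoribosome the shares were 0.229% under starvation and 0.263% in control, 12 of 15 members lay below 0 and the median was -0.25. Cytosolic ribosomal protein mRNAs lay on the same side, with 33 of 39 below 0 and a median of -0.31. The size was modest for most members: 4 oxidative chain and 2 mitoribosome mRNAs were at least 1.5-fold lower and none of either class was 1.5-fold higher, beside 10.1% lower and 10.3% higher among all transcripts. The plot of CPM by library shows the levels of each member.

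**Figure D1:**
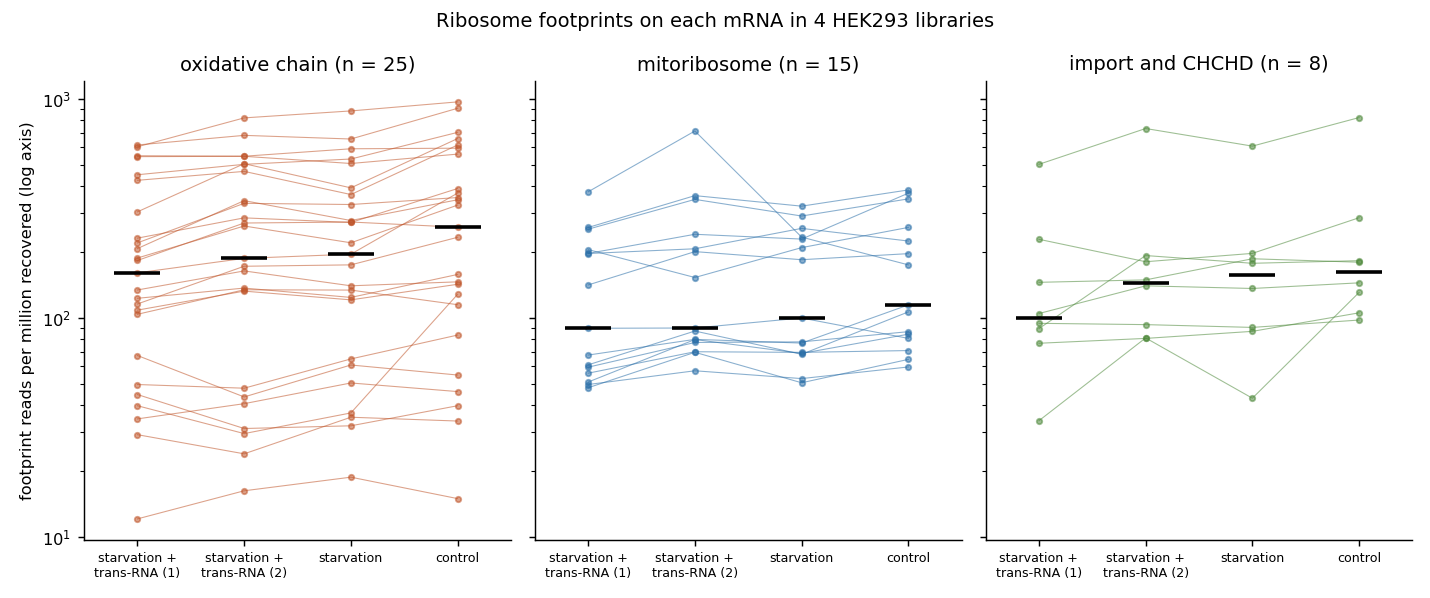
Footprint CPM (log axis) of each of the 48 mRNAs in trans-RNA libraries 1 and 2, starvation and control. Each line joins 1 mRNA and black bars mark class medians. The oxidative chain median is 160.5 and 187 CPM in trans-RNA libraries 1 and 2, 195 CPM under starvation and 259 CPM in control.

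Complex I, the NADH dehydrogenase that feeds electrons into the chain, held the member with the lowest ratio. NDUFC2, an accessory membrane subunit (chr11:78068297-78079862, GRCh38.p14), had 39.7 and 29.6 CPM in trans-RNA libraries 1 and 2, 36.8 CPM under starvation and 128 CPM in control. Its log2 ratio of starvation over control was -1.77 (95% counting interval -1.98 to -1.63), from 340 and 1346 reads, and the 3 starved libraries all lay far below control. Among all transcripts 1.89% were at least 2-fold lower and 2.55% at least 2-fold higher, and 2 of the 48 members were 2-fold lower and none higher. The NDUFC2 reads covered only the end of the message: 1297 of 1301 coding footprints in control, and all 334 under starvation, lay in the last 25% of its coding region. The NDUFC2 value thus rests on a short stretch. RefSeq annotates a readthrough gene, NDUFC2-KCTD14, over this locus (chr11:78015715-78079862 in GRCh38.p14), and how reads shared by both were counted is not given. Whether the readthrough gene has a part in where the reads lie was not tested. In the start window alone the NDUFC2 ratio was -0.72. On coding positions the count was again 2 lower and 0 higher, beside 5.03% and 4.18% of all transcripts. Of 27 members whose coding region is seen whole, only NDUFC2 and UQCRHL had over 90% of their control reads in 1 such part, beside 2.56% of 1404 transcripts with at least 100 coding reads. The authors' deposited table lists a log2 fold change of -1.03 for the NDUFC2 coding frame under starvation, on a sign that the table does not define.

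The other complex I mRNAs showed smaller differences. NDUFV1, which carries the flavin where NADH is oxidised, had 183 and 271 CPM in trans-RNA libraries 1 and 2, 274 CPM under starvation and 259 CPM in control. NDUFS1, the large iron-sulfur subunit, had 49.6 and 47.7 CPM in trans-RNA libraries 1 and 2, 64.9 CPM under starvation and 83.4 CPM in control. NDUFA9, an accessory subunit of the matrix arm, had 29.3 and 23.9 CPM in trans-RNA libraries 1 and 2, 35.1 CPM under starvation and 33.8 CPM in control. NDUFV1 and NDUFA9 had log2 ratios of starvation over control of 0.08 and 0.06, while NDUFS1 stood at -0.36. Among the assembly factors of this complex, NDUFAF3, NDUFAF7 and NDUFAF8 had log2 ratios of -0.23, 0.31 and -0.35. NDUFAF7, the methyltransferase among them, was the least covered member, at 18.7 CPM under starvation, against 14.9 CPM in control, and its sign turned with the positions counted, to -0.38 on coding positions alone.

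Complex II oxidises succinate and links the chain to the TCA cycle. SDHB, its iron-sulfur subunit, had 220.0 and 333 CPM in trans-RNA libraries 1 and 2, 329 CPM under starvation and 354 CPM in control. SDHD, a membrane anchor whose promoter letters are shown above, had 34.5 and 40.5 CPM in trans-RNA libraries 1 and 2, 50.4 CPM under starvation and 46.0 CPM in control. Both were near control under starvation, at log2 ratios of -0.11 and 0.13, and the assembly factor SDHAF3 stood at -0.30. In trans-RNA library 1 SDHB and SDHD were lower than in the other 3 libraries.

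Complex III passes electrons to cytochrome c. UQCRC1, a core subunit, had 104 and 134 CPM in trans-RNA libraries 1 and 2, 134 CPM under starvation and 115 CPM in control, and its ratio of starvation over control was 0.22. UQCRFS1, the Rieske iron-sulfur protein, had 207 and 343 CPM in trans-RNA libraries 1 and 2, 278 CPM under starvation and 346 CPM in control, with a log2 ratio of -0.31. The small subunits UQCRQ and UQCR10 stood at -0.40 and -0.14. UQCRHL, a near copy of UQCRH, had a log2 ratio of 0.15 on 60.9 CPM under starvation, against 54.8 CPM in control. Of its 567 coding footprints in control, 95.8% lay in the second 25% of the coding region, and because its sequence is close to UQCRH its reads may belong to either gene.

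Complex IV, cytochrome c oxidase, hands electrons to oxygen. COX7C had 616 and 682 CPM in trans-RNA libraries 1 and 2, 656 CPM under starvation and 906 CPM in control, and COX8A had 231 and 286 CPM in trans-RNA libraries 1 and 2, 273 CPM under starvation and 389.6 CPM in control. Both small subunits were lower under starvation, with log2 ratios of -0.47 and -0.51, whereas COX5A, a subunit facing the matrix, had 592 CPM under starvation, against 595 CPM in control and a ratio of -0.01. COX11, which delivers copper to the enzyme, stood at -0.06. COX7C also carried footprints ahead of its coding region: 18.7% of its control reads lay more than 15 nt before the start codon, and its ratio on coding positions alone was -0.37.

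All 6 ATP synthase mRNAs had ratios below 0 under starvation, with a median of -0.66. ATP5MK, a small membrane subunit, had 160.5 and 187 CPM in trans-RNA libraries 1 and 2, 195 CPM under starvation and 371 CPM in control. ATP5MC3, one of the genes for the rotor ring subunit, had 305 and 506 CPM in trans-RNA libraries 1 and 2, 392 CPM under starvation and 659 CPM in control. ATP5F1E, the epsilon subunit of the rotor stalk, had 425 and 467 CPM in trans-RNA libraries 1 and 2, 366 CPM under starvation and 616 CPM in control. These 3 were the lowest of the oxidative chain after NDUFC2, with log2 ratios of -0.92, -0.75 and -0.75, and each was highest in control. The catalytic beta subunit ATP5F1B had 604 and 819 CPM in trans-RNA libraries 1 and 2, 881 CPM under starvation and 969 CPM in control, the alpha subunit ATP5F1A had a ratio of -0.42 and the delta subunit ATP5F1D one of -0.57. For ATP5F1B the ratio was -0.14 over the whole transcript and -0.34 on coding positions alone, with 63.3% of its control reads outside both windows.

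Levels differed widely between subunits of the same enzyme. For this comparison coding footprints were scaled to the coding reads in the windows, 6880417 in control, and divided by the kilobases of coding region seen. For ATP5F1B and ATP5F1A only the ends of the coding region are seen. On this scale ATP5F1E reached 5474, ATP5MK 2729, ATP5MC3 2098, ATP5F1D 982, ATP5F1B 888 and ATP5F1A 202 in control. The highest of the members on this scale was COX7C at 5746, followed by ATP5F1E, UQCR10 at 4131 and UQCRQ at 3362, with recovered lengths of 252 nt or less. The median was 545 for the oxidative chain, 293 for the mitoribosome and 30.5 for all transcripts in control, and 6364 for cytosolic ribosomal proteins.

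In the large subunit of the mitoribosome, 6 of 9 mRNAs had ratios below 0 under starvation. MRPL17 had 197 and 241 CPM in trans-RNA libraries 1 and 2, 229 CPM under starvation and 371 CPM in control, the lowest ratio of the class at -0.69 (95% counting interval -0.77 to -0.62). MRPL2, near the peptidyl transferase centre, had 61.0 and 87.0 CPM in trans-RNA libraries 1 and 2, 68.1 CPM under starvation and 106 CPM in control, a ratio of -0.64. MRPL35 and MRPL18 were the highest after MRPL22, at 0.31 and 0.19. All 6 small subunit mRNAs lay below 0, led by MRPS11 at -0.57 and MRPS18B at -0.35, with MRPS18C at -0.03 the closest to control. Per kilobase of coding region seen, MRPL41, MRPL17 and MRPS26 had the most coding footprints of the class in control. They stood at 1385, 1063 and 844 CPM, scaled to coding reads as above. The starvation ratios of MRPL41 and MRPS26 were -0.25 and -0.26.

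Among the import and CHCHD mRNAs, CHCHD10 stood apart. The mRNA of this protein of the intermembrane space (chr22:23765834-23767972) had 33.9 and 80.9 CPM in trans-RNA libraries 1 and 2, 42.9 CPM under starvation and 131 CPM in control. Its log2 ratio of starvation over control was -1.58 (95% counting interval -1.77 to -1.44), from 397 and 1373 reads, and control and trans-RNA library 2 were the high libraries. Its paralog CHCHD2 had 503 and 732 CPM in trans-RNA libraries 1 and 2, 609 CPM under starvation and 822 CPM in control, a ratio of -0.43. TIMM10, a small chaperone that guides carrier proteins to the inner membrane, stood at -0.54 and the channel subunit TIMM23 at -0.28. TIMM50, TIMM44, TIMMDC1 and TOMM34 lay between -0.11 and 0.05. TIMM44 depended on the positions counted, at -0.82 on coding positions alone, with 81.5% of its starvation reads outside both windows.

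**Figure D2:**
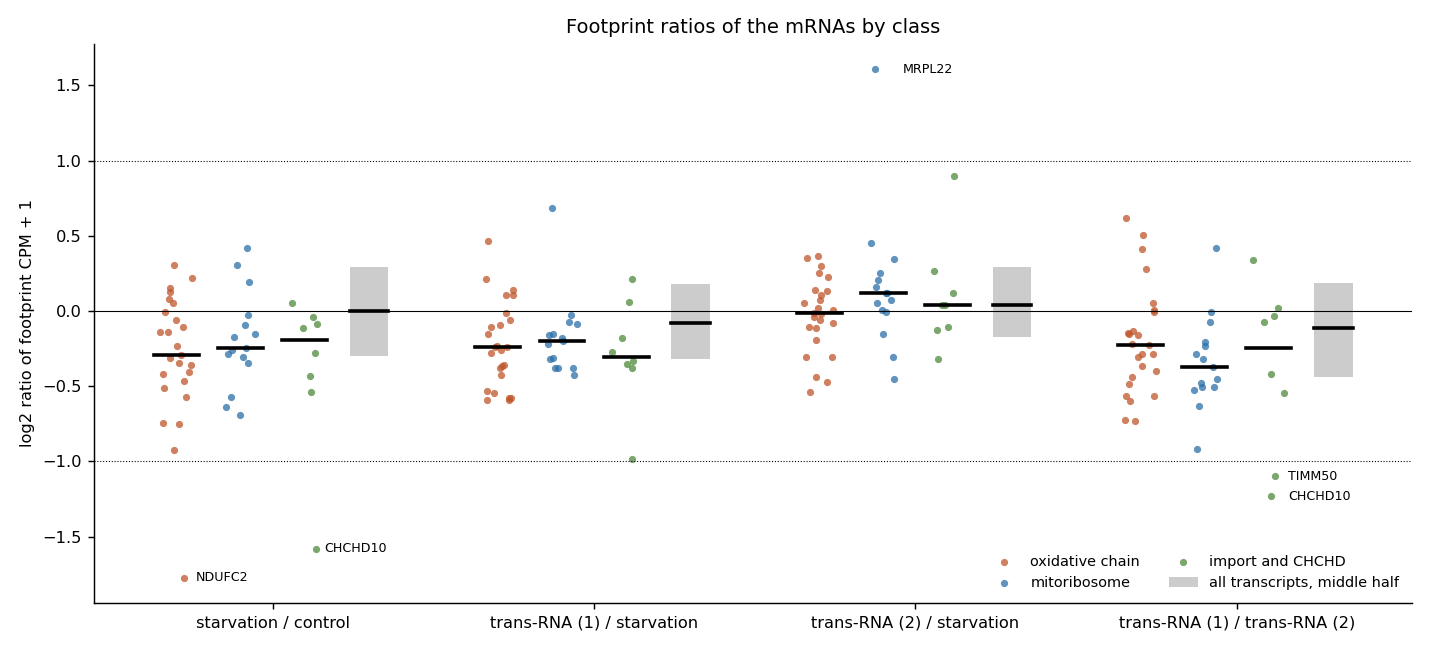
Log2 ratio of footprint CPM + 1 for the 48 mRNAs (points) in the 4 comparisons, by class, with black bars at medians. Grey boxes span the interquartile range of all transcripts and dotted lines mark 2-fold. NDUFC2 and CHCHD10 lie below the lower line in starvation over control, MRPL22 above the upper one in trans-RNA library 2 over starvation, and TIMM50 and CHCHD10 below in library 1 over library 2.

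With trans-RNA added to starvation, the 2 libraries lay on different sides of the starvation library for many members. They share the starvation library as reference, so their values are given side by side. In trans-RNA library 1, 20 of 25 oxidative chain mRNAs and 14 of 15 mitoribosome mRNAs had a ratio below 0 over starvation, beside 58.9% of all 9950 transcripts, with medians of -0.24 and -0.20 against -0.08 for all. In trans-RNA library 2, 13 of 25 and 4 of 15 lay below 0, beside 45.2% of 10030 transcripts, with medians of -0.02 and 0.12 against 0.04 for all, and the oxidative chain median was 0.10 on coding positions alone. Cytosolic ribosomal proteins lay on the other side in library 1: 33 of 39 were above 0 there with a median of 0.27, and 26 of 39 were above 0 in library 2 with a median of 0.10. The oxidative chain held 0.555% of reads in trans-RNA library 1 and 0.672% in library 2, and 0.649% under starvation. The mitoribosome held 0.211% in trans-RNA library 1 and 0.283% in library 2, and 0.229% under starvation.

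No member passed 2-fold in either direction in trans-RNA library 1 over starvation, where 1.16% of all transcripts were 2-fold lower and 1.24% higher. On coding positions 0 members passed 2-fold, beside 5.24% lower and 3.26% higher. At 1.5-fold 3 members were lower and 1 higher, beside 8.2% and 6.21% of all transcripts. TIMM50, the receptor that hands proteins to the TIM23 channel, came closest. Its mRNA (chr19:39480838-39493779) had 89.2 and 193 CPM in trans-RNA libraries 1 and 2, 177 CPM under starvation and 182 CPM in control, a log2 ratio of -0.98 (95% counting interval -1.13 to -0.85) in library 1 and 0.12 in library 2. Only library 1 was low for it, and its ratio there was -0.95 on coding positions alone. ATP5F1A, NDUFV1, SDHB and NDUFAF7 were the lowest of the oxidative chain in library 1, between -0.59 and -0.58, but NDUFAF7 stood at 0.23 on coding positions alone. Their ratios in library 2 were -0.02 for ATP5F1A, -0.02 for NDUFV1, 0.02 for SDHB and -0.20 for NDUFAF7, which was at 0.41 on coding positions. At the other end, SDHAF3 stood at 0.46 in library 1 and -0.04 in library 2, ATP5F1E at 0.22 and 0.35, and UQCRHL at 0.14 and -0.48. NDUFC2 stayed near its starvation level, at 0.11 and -0.30 relative to starvation.

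In trans-RNA library 2 the highest oxidative chain mRNAs were ATP5MC3 at 0.37, ATP5F1E at 0.35, UQCRFS1 at 0.30 and ATP5F1D at 0.25. The lowest were NDUFA9 at -0.54, UQCRHL at -0.48, NDUFS1 at -0.44 and SDHD at -0.31. The 4 complex I subunits lay below 0 in this library over whole transcripts, but on coding positions alone 3 lay below 0, with NDUFV1 at 0.09 and NDUFS1 at -0.05. On both counts all 6 small subunit mRNAs of the mitoribosome lay above 0, led by MRPS18B at 0.45 over the whole transcript. In library 1 the same 6 all lay below 0, with MRPS16 lowest at -0.38. CHCHD10 was closer to its control level in library 2, at a log2 ratio over starvation of 0.90 (95% counting interval 0.73 to 1.10), and stood at -0.33 in library 1.

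MRPL22, a protein at the exit tunnel of the large subunit (chr5:154941073-154969411), was the only member at least 2-fold higher in any of the 4 comparisons, and the difference did not lie at the coding positions seen. It had 376 and 714 CPM in trans-RNA libraries 1 and 2, 234 CPM under starvation and 175 CPM in control, a log2 ratio of 1.61 (95% counting interval 1.54 to 1.68) in library 2 and 0.69 in library 1, where 1.87% of transcripts in library 2 were 2-fold higher and 0.199% lower. Of its 2278 and 5281 reads in trans-RNA libraries 1 and 2, 685 and 743 stood at coding positions, as did 931 of 2161 under starvation and 1303 of 1835 in control. On coding positions alone the ratio over starvation was 0.04 in library 2 and 0.17 in library 1. Of the rest, 1593 and 4536 reads in trans-RNA libraries 1 and 2, 1230 under starvation and 526 in control were counted on the transcript outside both windows. Whether they lie in its UTRs or in the short unseen middle of its coding region cannot be read from the tables. The authors' deposited table lists log2 fold changes of -0.27 in library 1 and -0.21 in library 2 for the MRPL22 coding frame, on the same undefined sign. Counted on coding positions, 0 of the 48 members were 2-fold higher or lower in library 2 over starvation, beside 5% higher and 0.927% lower among all transcripts. At 1.5-fold over whole transcripts 2 members were higher and 0 lower, beside 8.7% and 2.11%. The plot by place shows the split beside the other members past 2-fold.

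**Figure D3:**
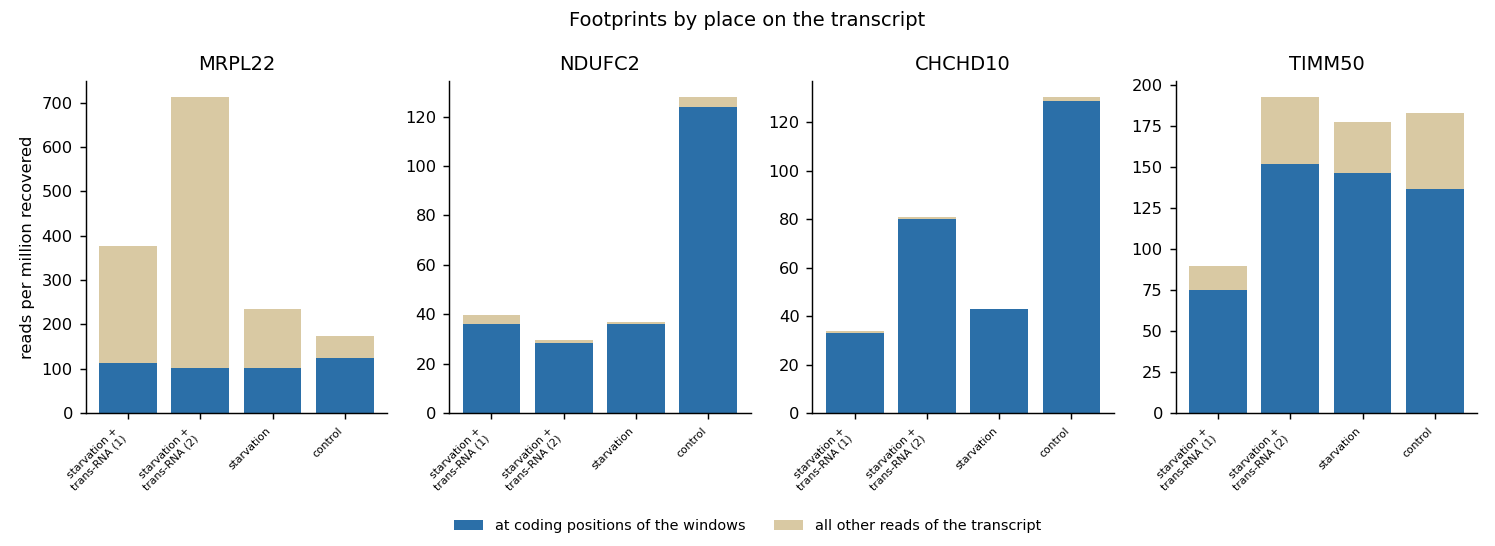
Footprint CPM of MRPL22, NDUFC2, CHCHD10 and TIMM50 in trans-RNA libraries 1 and 2, starvation and control, split into reads at coding positions of the windows (blue) and all other reads of the transcript (tan); each panel has its own axis from 0. For MRPL22 the tan part makes up most of 714 CPM in trans-RNA library 2, while the other 3 differ mainly in the blue part.

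Between the 2 trans-RNA libraries, library 1 was lower for most members. 19 of 25 oxidative chain and 14 of 15 mitoribosome mRNAs had a ratio of library 1 over library 2 below 0, beside 60.5% of 9970 transcripts, and the medians were -0.22 and -0.37 against -0.11. CHCHD10 at -1.23 (95% counting interval -1.49 to -1.03) and TIMM50 at -1.10 (95% counting interval -1.25 to -0.97) were at least 2-fold lower in library 1, beside 4.27% of all transcripts, and none was 2-fold higher, beside 0.963%. On coding positions 3 members were 2-fold lower and 0 higher, beside 10.8% and 2.1% of all transcripts. At 1.5-fold 7 members were lower and 1 higher, beside 17% and 5.46%. With ratios centred on the median of all transcripts TIMM50 stood at -0.99, just inside 2-fold. ATP5MC3 at -0.73, UQCRFS1 at -0.72 and SDHB at -0.60 were the lowest of the oxidative chain, and MRPL38 at -0.63 the lowest of the mitoribosome after MRPL22. UQCRHL at 0.62, SDHAF3 at 0.50, NDUFC2 at 0.41 and MRPL15 at 0.42 ran the other way. Both libraries carry the same treatment label, but their trans-RNAs may differ, so these values are not a measure of replicate error.

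The authors' deposited table lists log2 fold changes of reading frames without saying which library stands on top. Its sign was read as starvation over control, and as trans-RNA over starvation, because its values correlate positively with the coding ratios here. The correlations were 0.56 over 4565 transcripts for starvation, 0.30 over 4560 for trans-RNA library 1 and 0.43 over 4565 for library 2, where genes are not independent replicates. For them each transcript took the median of its frames labelled coding or truncated, while the counts below use coding frames alone. Since the sign was chosen this way, the direction of its values is no support for the ratios above, and with the other sign each count below would read as above 0. The authors' deposited table gives a value for the coding frame of 30 members, of which 29 were below 0 under starvation, with a median of -0.40, beside a median of -0.14 over all its coding frames. By class, the authors' deposited table has 15 of 16 oxidative chain and 9 of 9 mitoribosome frames below 0 under starvation. In the authors' deposited table for trans-RNA library 1, 30 of 30 were below 0 with a median of -0.58, beside -0.48 for all its coding frames. For trans-RNA library 2 the authors' deposited table has 24 of 30 below 0 with a median of -0.16, beside -0.25.

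Other nuclear genes for mitochondria, listed by role, lay on both sides of control under starvation. Of 26 genes for maintenance, fusion and metabolite transport, 10 had a name and recovered reads, and 9 lay below 0, with a median of -0.27. Among all transcripts 50.2% lay below 0. The ADP/ATP carrier SLC25A6 had 84.3 and 130.1 CPM in trans-RNA libraries 1 and 2, 89.97 CPM under starvation and 180.0 CPM in control, a log2 ratio under starvation of -0.99, while its relative SLC25A5 stood at 0.02. VDAC3, an outer membrane channel of the same list, stood at -0.65. Of 12 other genes listed for import, 4 were recovered and 3 lay below 0, with a median of -0.34. The lowest of these was AIFM1, which works with the import receptor CHCHD4, at -0.64, and PMPCB lay above 0 at 0.18. In the TCA cycle only 2 of 19 listed genes were recovered, and both lay above 0 under starvation. IDH2, the mitochondrial isocitrate dehydrogenase, had 92.7 and 103.0 CPM in trans-RNA libraries 1 and 2, 115 CPM under starvation and 46.7 CPM in control. Its log2 ratio of starvation over control was 1.28, and 2.55% of all transcripts were at least 2-fold higher. MDH2 stood at 0.12. Of 21 genes listed for mitochondrial translation, 5 were recovered: AARS2, DAP3, LARS2, LRPPRC and PTCD3, none with an MRPL or MRPS name. Under starvation 4 of these lay below 0, with the alanyl-tRNA synthetase AARS2 lowest at -0.83. The leucyl-tRNA synthetase LARS2 stood at 0.39 in trans-RNA library 1 and 0.92 in library 2 over starvation, and LRPPRC, which binds mitochondrial mRNAs, at -0.72 and -0.48. Of 22 listed genes of respiration outside the member families, 5 were recovered. Under starvation 3 of these lay below 0, with CYCS, cytochrome c, at -0.07. These lists were drawn up with earlier results of these data known.

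Capped small RNA peaks of the members lay mostly in 5′ UTRs, while the total library had few there and many peaks on 3 genes in 3′ UTRs. In the capped library 62 of 78 sense peaks (79.5%, exact binomial 95% interval 68.8 to 87.8%) lay in the 5′ UTR, against 4 of 67 (5.97%, 1.65 to 14.6%) in the total library. In the 3′ UTR the capped library had 8 of 78 (10.3%) and the total library 42 of 67 (62.7%), beside 14.4% and 30.2% for all genes. Of these 42, 21 were on COX7C, 9 on ATP5MC3 and 4 on MRPL42. Without these 3 genes 8 of 30 total sense peaks (26.7%) lay in the 3′ UTR and 18 in coding regions. By gene, 17 members had a total peak in the coding region and 11 in the 3′ UTR. All genes together had 61.7% of 4521 capped and 12.8% of 3416 total sense peaks in the 5′ UTR. Cytosolic ribosomal proteins had 92.9% of 42 capped and 6.32% of 174 total sense peaks there, so this split is not particular to the members. The members' peaks came from 58 genes in the capped library and 26 in the total library, with 11 in both. These 11 are 19.0% of the capped and 42.3% of the total genes. In both libraries 6 peak positions were the same. The overlap was not counted over all genes, so these values have no background beside them.

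**Figure D4:**
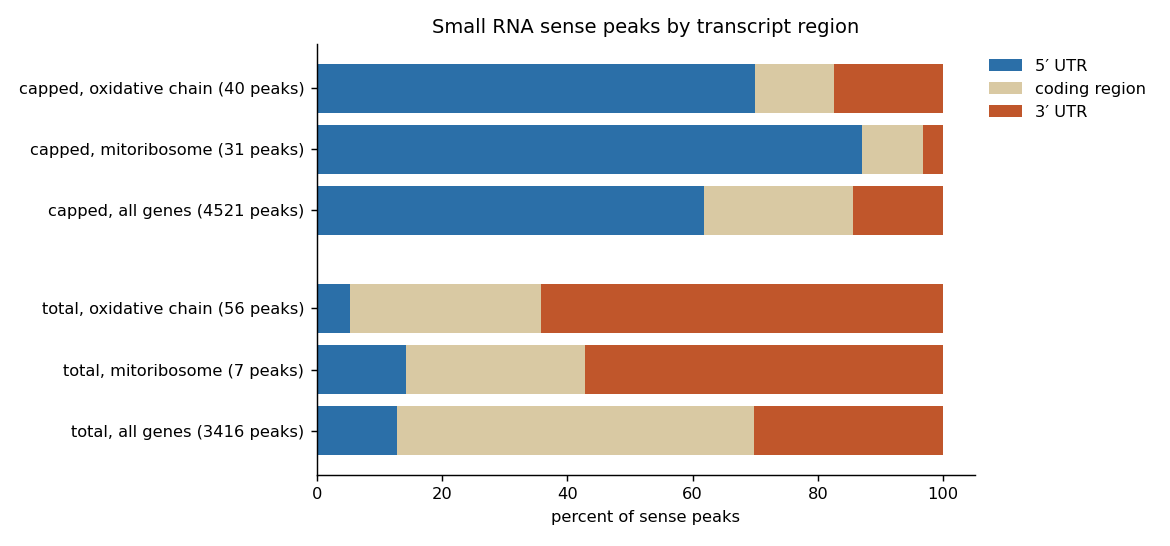
Percent of small RNA sense peaks in the 5′ UTR, coding region and 3′ UTR, for capped and total libraries, with the oxidative chain and mitoribosome above all genes in each. Capped peaks lie mostly in the 5′ UTR, 70.0% for the oxidative chain and 87.1% for the mitoribosome, and the total peaks in 3′ UTRs come mainly from COX7C, ATP5MC3 and MRPL42.

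The capped peaks of mitoribosome mRNAs were close to the start codon. Of their 31 sense peaks 27 were in the 5′ UTR (87.1%, 70.2 to 96.4%), at a median of 17 nt before the start codon, and 21 (67.7%, 48.6 to 83.3%) lay within 30 nt of it. The oxidative chain had 28 of 40 in the 5′ UTR (70.0%, 53.5 to 83.4%), at a median of 44 nt before it, and 15 within 30 nt (37.5%, 22.7 to 54.2%). Among all genes 12.1% of capped sense peaks lay within 30 nt of the start codon, and among cytosolic ribosomal proteins 28.6% of 42. Peaks of 1 gene are not independent, and the lengths of the 5′ leaders were not analysed here.

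Most of these peaks were low. The median was 6 reads in the capped library, with 4 reads the lowest deposited. MRPL34 had the highest mitoribosome peak, 44 reads at 40 nt before the start codon, with a second of 6 reads at 21 nt before it. MRPL38 had 17 reads at 7 nt and 10 reads at 3 nt before, MRPL15 had 11 reads at 23 nt and MRPS24 had 10 reads at 12 nt. MRPS11 was an exception, with 13 reads inside the coding region at 149 nt. MRPL37 had its peak of 4 reads on the start codon itself and MRPS7 one of 4 reads 12 nt into the coding region. In the oxidative chain NDUFS8 led the 5′ UTR peaks with 34 reads at 21 nt and 14 reads at 42 nt before the start codon, followed by ATP5F1B with 16 reads at 21 nt and NDUFB10 with 12 reads at 49 nt. NDUFC2 had capped peaks of 9, 6 and 4 reads at 95, 92 and 46 nt before its start codon, CHCHD10 one of 8 reads at 67 nt, TIMM50 one of 4 reads at 5 nt and MRPL22 one of 7 reads at 5 nt. Thus all 4 members past 2-fold in a footprint comparison had a capped peak ahead of the start codon, as did 30 of the 48 members with footprints. Members with such a peak and those without had median log2 ratios of starvation over control of -0.27 (n = 30) and -0.19 (n = 18), with ranges that overlapped.

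**Figure D5:**
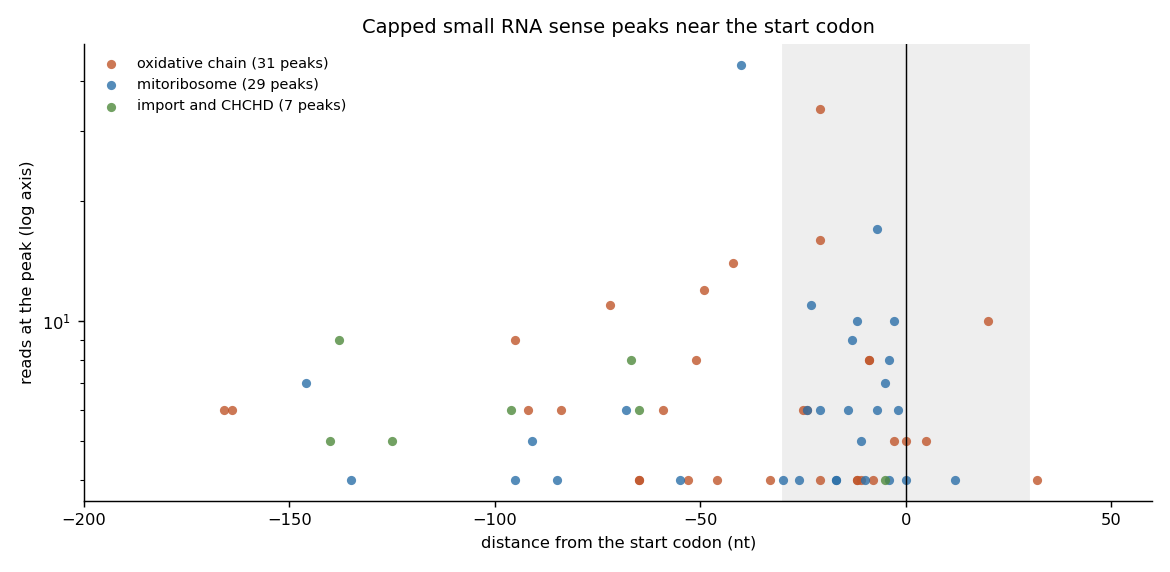
Reads at each capped sense peak (log axis) against its distance from the start codon in nt, for the 67 member peaks between -200 and 60 nt, coloured by class, with the 30 nt on either side shaded. Mitoribosome peaks gather in the shaded zone, oxidative chain peaks spread further upstream, and the highest is MRPL34 with 44 reads.

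The total library was dominated by few loci in 3′ UTRs. COX7C alone had 23 sense peaks with 6397 reads, 91.3% of the reads at oxidative chain peaks. The highest were 3118 reads at 1230 nt and 2988 reads at 1229 nt from the start codon, and the capped library had 80 and 52 reads at the same positions. RefSeq places a small nucleolar RNA, SNORD138 (chr5:86620506-86620568, 63 nt, GRCh38.p14), inside the COX7C gene. Whether the peaks are that RNA was not tested. ATP5MC3 had 10 peaks, led by 202 reads at 2152 nt and 86 reads at 2127 nt, where the capped library had 4 reads. MRPL42 had 71 reads at 8890 nt and 62 reads at 8908 nt, and its gene spans a 7SL pseudogene, RN7SL737P. In coding regions, as the deposited lists label them, total peaks were scattered, with 21 peaks on 17 genes, the highest of 12 reads in ATP5PO. Among these, the ATP5MC3 peak at 459 nt lies past the 429 nt of coding region recovered here.

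In the 5′ UTR of ATP5MK the total library had peaks of 31 reads at 172 nt, 53 reads at 133 nt and 7 reads at 132 nt before the start codon. The gene holds MIR1307, whose mature arms are shown because their 5′ ends lie 39 nt apart in the genome, the same distance as the first and second of these peaks, while the first and last of them lie 40 nt apart. The positions were not matched to the genome, and whether the peaks are these arms was not tested. The seed, bases 2 to 8, is in capitals, and the arms are on chromosome 10 of GRCh38.p14 as RefSeq gives them.
hsa-miR-1307-5p (chr10:103394341-103394361, minus strand): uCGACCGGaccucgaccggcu
hsa-miR-1307-3p (chr10:103394301-103394322, minus strand): aCUCGGCGuggcgucggucgug
The seeds of the arms differ. The capped library had no peak at these positions and 1 of 4 reads at 528 nt before the start codon. Footprints on ATP5MK were spread unevenly, with 60.7% of its coding reads in control in the first 25% of the coding region.

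Antisense peaks were few, with 10 capped peaks on 6 genes and 17 total peaks on 8 genes, 3 of the genes in both. This overlap was not counted over all genes either. UQCRC1 had the highest in each library: opposite its coding region, the capped library had 1224 reads at 357 nt and 586 reads at 361 nt from the start codon, against 178 and 81 reads at the same positions in the total library. These positions and the pair at 355 and 360 nt were all 4 shared by both libraries. RefSeq places a small nucleolar RNA, SNORA94 (chr3:48604920-48605150), inside this gene, and its part in the peaks was not tested. MRPL42 had 132 capped and 35 total reads opposite 1260 nt, in its 3′ UTR. UQCRHL, by contrast, had more reads in the total library, with 36 capped and 168 total reads opposite 785 nt before the start codon. Reads at peaks are not scaled to library depth. Antisense peaks of all genes held 78796 reads in the capped and 119784 in the total library. ATP5F1D had 43 reads opposite 775 nt in the total library and TIMM44 20 reads opposite 603 nt in the capped library, each in 1 library alone.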

How the data were processed

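Ribosome footprints of 4 HEK293 libraries and small RNA peaks of 2 HEK293 libraries were used. STAR 2.7.10a, Bowtie 1.2.3, cutadapt 2.8 and bcl2fastq 2.20.0.422 are named, per the submitters' processing notes. A human genome build was not given in the sources. The deposited signal is footprint density per position from 30 nt before to 300 nt after the start codon and around the stop codon, divided by the authors by the mean of the transcript. Peak lists hold deposited counts of reads per position with 4 as the lowest value. The authors' deposited table gives log2 fold changes per reading frame.

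Each density is a whole multiple of length over reads, from which both were recovered where at least 8 positions held reads, for 10085 of 16984 transcripts. Where the windows overlap, the recovered length matched the distance between the codons in 1532 of 1595 transcripts, and the other 63 were corrected. Transcripts whose windows held more reads than their recovered total were left out, 196 in all. Where the windows do not overlap, the recovered length could not be compared in this way. The recovery was also run on simulated data built with the same scaling, which cannot show whether the deposited densities follow it. Ratios are log2 of CPM + 1 over CPM + 1, for transcripts with at least 1 CPM in 1 library compared. For ratios and values per kilobase on coding positions, CPM was scaled to the coding reads in the windows of each library. Coding positions run from 15 nt before the start codon to 15 nt before the stop codon and were added after seeing the data, as were shares of peaks without COX7C, ATP5MC3 and MRPL42. Intervals are exact (Clopper-Pearson, 95%) and cover counting error only.

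The 2 trans-RNA libraries were kept as separate groups, since whether they received the same trans-RNA is not given. No test between conditions was run, and counts past 2-fold are given beside the share of all transcripts. The members and lists were chosen with earlier results of these data known. Named members are the 4 highest and 4 lowest ratios per class and comparison with at least 10 CPM in 1 library, those past 2-fold, and those with most reads at peaks; further members were named after their values were seen, to complete each complex. Python 3.11.15, numpy 2.4.6, pandas 2.3.3, scipy 1.17.1, matplotlib 3.10.9, R 4.3.3 and edgeR 4.0.16 (TMM factors only, as an alternative) were used. Gene positions, promoters and miRNAs are from RefSeq, GRCh38.p14.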

Additional observations from a re-analysis of the deposited data

How the results depend on the processing

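Pseudocounts, filters on low values, leaving out the highest position, centring, TMM factors, single windows, coding positions and a 1.5-fold threshold were tried. Of the class medians 74 values moved by less than the median half-width of the members' counting intervals and 6 by more. For starvation over control the oxidative chain median was -0.40 in the stop window. In trans-RNA library 1 over starvation the mitoribosome median was -0.37 in the start window. In trans-RNA library 2 over starvation the oxidative chain median was 0.11 in the start window, 0.10 in the stop window and 0.10 on coding positions. In library 1 over library 2 it was -0.37 in the start window. Members at least 2-fold lower in library 1 over library 2 numbered 7 in the start window, 5 in the stop window, 1 when centred and 1 with TMM factors. In the start window 2 members were 2-fold lower in library 1 over starvation and 1 in library 2 over starvation. In library 2 over starvation 0 were 2-fold higher in the stop window and 0 on coding positions. MRPL22 there stood at -0.034 in the stop window. For single windows, centring and TMM factors the shares of all transcripts past 2-fold were not counted. The numbers of members under these settings therefore have no background beside them. At 1.5-fold, 7 members were lower under starvation, 3 lower and 1 higher in library 1 over starvation, 2 higher in library 2 over starvation, and 7 lower and 1 higher in library 1 over library 2. Of total sense peaks with at least 10 reads, 80.0% of the oxidative chain and 100% of the mitoribosome lay in the 3′ UTR. The mitoribosome peaks of this size, of 29, 71 and 62 reads, were all on MRPL42. The share for all genes at this minimum was not counted. Without COX7C, ATP5MC3 and MRPL42, and with no such minimum, the 3′ UTR share was 26.1% of 23 peaks for the oxidative chain and 0 of 3 for the mitoribosome. The cause of these differences was not tested. No paired analysis was possible because each group, with the trans-RNA libraries kept apart, held 1 library. Depth limits the least covered members most, with 73 reads for NDUFAF7 in trans-RNA library 1.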
